A study of Homo sapiens with 36 samples.

Results

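A549 cells, an epithelial line from a human lung adenocarcinoma, were examined 30 days after IL-1β had been taken out of the medium. The 6 libraries labelled as day 30 after treatment, of 36 in the series, were chosen by that label alone. In 3 of them the cells had been grown with IL-1β at 1 ng/ml for 21 days and then kept without it for 30 days. The other 3 came from A549 cells cultured alongside with no IL-1β at any time. The former are called previously treated and the latter untreated. Total RNA was made into mRNA libraries with a stranded kit and the reads falling on the exons of each gene were counted. The labels call the replicates of each group biological, and do not say whether each came from its own treated culture. The p-values therefore measure the spread between labelled samples within their groups, pooled over all 36 libraries of the series. The cells were grown in RPMI medium with serum, the model is a single cell line, and in bulk RNA a larger share of cells making a transcript and more transcript per cell cannot be told apart.

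IL-1β is an inflammatory cytokine. Through its receptor and the adaptor MyD88 it activates NF-κB and the MAP kinase and AP-1 pathway, which switch on cytokines, chemokines and their own feedback inhibitors. In carcinoma cells such signals can drive the epithelial-to-mesenchymal transition (EMT), in which junction proteins are repressed by the SNAI and ZEB factors and mesenchymal genes come on. EMT is normally reversible, and EMT memory is the name given to the part of the new state that persists when the signal is gone. The comparison asks which transcripts still set the previously treated cells apart a month after withdrawal.

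The libraries held 10014699 to 19943770 counts on genes. Mitochondrial transcripts took 23.2% and 12.2% of the counts in replicate 2 of the untreated and of the previously treated group, and 6.83% to 7.39% in the other 4. The share did not separate the groups (12.5% ± 9.26 and 8.78% ± 2.95, mean ± SD, n = 3 each, exact two-sided permutation test p = 0.60, where 0.10 is the smallest p that 3 against 3 allow). Leaving out the 11 libraries of high mitochondrial share in the series gave 145 called genes, with 104 of the 172 described below among them. Expression is given as CPM, the usual scale of counts against effective library size, and 1 count corresponds to 0.0467 to 0.129 CPM here. A gene was called when its change passed a Benjamini-Hochberg adjusted p of 0.05 and a fold change of 2 in a quasi-likelihood test (edgeR) fitted to all 36 libraries in their 12 groups.

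Of 19180 genes tested, 172 (0.897%) were called, 83 higher (0.433%) and 89 lower (0.464%) in the previously treated cells. Their median change was 1.69 on the log2 scale in either direction, and 57 changed more than 4-fold, 30 of them upward and 27 downward. Most were of modest abundance, as 62 had a mean under 5 CPM in both groups and 19 exceeded 50 CPM in either. In 168 of the 172 the groups did not overlap, which held for 11.9% of all tested genes and by itself fixes the direction of every pair. All 172 moved the same way in the 3 same-numbered pairs of libraries. Both figures describe genes selected on these same libraries. The share of all tested genes whose pairs agree was not counted. Across all tested genes the median log2 change was -0.0039, and the middle 50% lay between -0.25 and 0.22. An unadjusted edgeR p under 0.05 was reached by 1602 (8.35%) of them. The count depended on how the spread was estimated. The same edgeR test on the 6 libraries alone called 0 genes, with 897 at an unadjusted p under 0.05, while edgeR's exact test on these 6 called 134 and DESeq2 on all libraries called 218. With the replicate number nested within each time point as a block the count was 263. Leaving out untreated replicate 3 left 63 calls, previously treated replicate 1 left 65 and previously treated replicate 2 left 63. Leaving out all libraries of a replicate number, at every time point of the series, left 6 (number 1), 25 (number 2) and 162 (number 3) calls. In all, 40 of the 172 (21 higher and 19 lower) stayed called without any 1 of the 6 libraries, and these include PTPRD, KRT81, ITGB3, OAS1, FN1, CLDN2, INHBB, FGB and F5. Scaling by total counts instead of TMM called 83 higher and 54 lower, with the median of all genes shifted to 0.089.

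**Figure D1:**
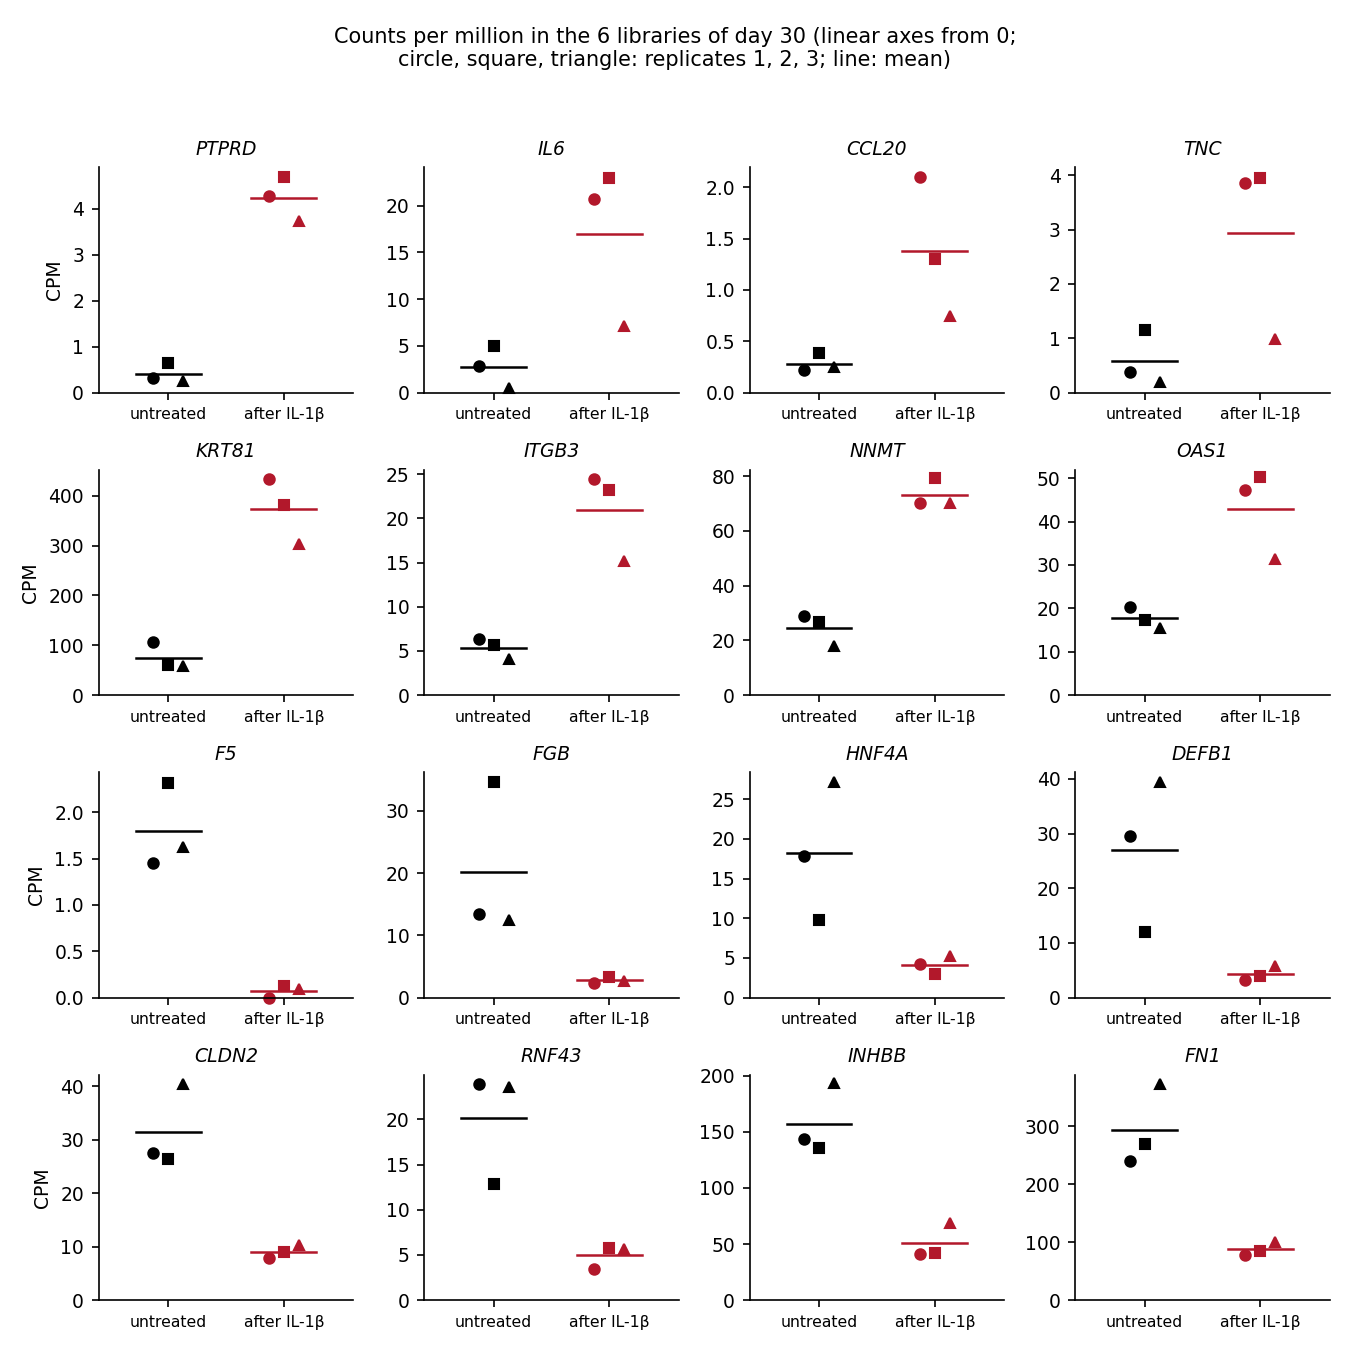
CPM of 16 genes in each of the 6 day 30 libraries, on linear axes that start at 0. Black marks are untreated and red marks previously treated libraries, circles, squares and triangles are replicates 1, 2 and 3, and lines are means of 3. The groups overlap for TNC, where untreated replicate 2 (1.16 CPM) lies above previously treated replicate 3 (0.981 CPM), and in no other panel.

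PTPRD, a receptor-type tyrosine phosphatase, was among the genes furthest above the untreated level. It stood at 0.322, 0.643 and 0.246 CPM in the untreated libraries and 4.27, 4.68 and 3.74 CPM in the previously treated ones, a log2 fold change of 3.53 ± 0.42 (SE, edgeR adjusted p = 1.31e-05), and the lowest treated value was several times the highest untreated one. The gene lies on GRCh37 at chr9:8314246-10613002, minus strand. KCNQ3, a voltage-gated potassium channel subunit, rose from 2.15, 1.93 and 1.62 CPM to 13.4, 13.5 and 9.76 CPM (2.68 ± 0.36 on the log2 scale, edgeR adjusted p = 5.84e-05). CCBE1, a secreted protein required for lymphatic vessel growth, rose from 4.46, 4.75 and 2.36 CPM to 23.7, 26.9 and 13.9 CPM, which is 5.65-fold by the fit (edgeR adjusted p = 2.29e-05). For these 3 genes each previously treated library lay above every untreated one, and the call held without any 1 library. P2RX6, an ATP-gated channel subunit, had 0.645, 0 and 0.344 CPM untreated and 2.78, 3.83 and 2.43 CPM previously treated, and its log2 change of 2.93 was 3.64 without untreated replicate 1, where its call also held. The mucosal scavenger protein DMBT1 (log2 change 2.90), the transporter SLC6A17 (2.57), the pleckstrin family member PLEK2 (2.38), SHISAL1 (2.37) and STXBP6 (2.77) were also among the uppermost 20. These 5 lay under 6 CPM and each lost its call without at least untreated replicate 3. Over the single omissions the log2 change ran from 2.14 to 3.78 for DMBT1, 2.17 to 3.56 for SLC6A17 and 2.41 to 3.51 for STXBP6. STXBP6 also lost its call with the replicate block within the time point (edgeR adjusted p = 0.0521). STXBP6 was near the floor of detection, with 2, 0 and 1 reads untreated and 8, 11 and 5 reads previously treated, a ratio of summed counts of 7.26 (95% exact counting interval 2.2 to 37.6).

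Inflammatory genes were divided. IL6, the gene of the pleiotropic cytokine interleukin 6, stayed higher at 20.7, 23 and 7.1 CPM against 2.79, 5.01 and 0.491 CPM, a log2 change of 2.74 ± 0.56 (edgeR adjusted p = 0.00759). The lowest treated library was replicate 3, which was also the lowest untreated one, so the pair difference kept its direction while the levels varied. A non-coding transcript, STEAP1B-AS1, whose gene (chr7:22602956-22613615, plus strand) lies on the same arm as IL6 (chr7:22765503-22771621, plus strand), had 1, 0 and 0 reads untreated and 9, 17 and 9 reads previously treated, a fitted log2 change of 3.97 to 6.51 over the single omissions and a ratio of 31.7 (95% exact counting interval 5.34 to 1289). On the opposite strand, STEAP1B covers 37.6% of its exons, so its reads are uncertain where counting did not use strand. STEAP1B-AS1 (edgeR adjusted p = 0.0155) lost its call without untreated replicate 3 or previously treated replicate 2 (edgeR adjusted p up to 0.154). It was also lost without the libraries of high mitochondrial share (edgeR adjusted p = 0.0982). CCL20, which attracts CCR6-bearing lymphocytes and dendritic cells, was low but higher in every treated library, with 0.215, 0.386 and 0.246 CPM untreated and 2.1, 1.3 and 0.747 CPM previously treated (log2 change 2.34 ± 0.51, edgeR adjusted p = 0.0143). CSF1, the macrophage growth factor, rose from 75.3, 51.8 and 71.3 CPM to 152, 151 and 133 CPM (2.2-fold, edgeR adjusted p = 0.0206). These were the 3 called members among 18 tested of 26 listed cytokines and chemokines, none was lower, and the list median was 0.33, against 4.18 at day 21 of exposure. The neutrophil chemokines were not among the called genes in the fit without a replicate block. CXCL8 had 1.42 ± 0.744 CPM untreated and 0.68 ± 0.145 CPM previously treated (mean ± SD, n = 3 each), a log2 change of -0.97 ± 0.48 (edgeR adjusted p = 0.60), and CXCL1 3.52 ± 0.523 and 1.53 ± 0.431 CPM (-1.16 ± 0.31, edgeR adjusted p = 0.0606). With the replicate block CXCL1 was called as lower (-1.18, edgeR adjusted p = 0.00376, and -1.17, 0.00854, with the block within the time point). Without the libraries of high mitochondrial share CXCL1 was not called (-0.90, edgeR adjusted p = 0.448). Its edgeR adjusted p reached 0.359 over the single omissions. The monocyte chemoattractant CCL2 stood at 2.31 ± 1.18 and 1.69 ± 0.793 CPM (-0.38 ± 0.43, edgeR adjusted p = 0.857). IL6 lost its call without untreated replicate 3 or previously treated replicate 2. CCL20 lost it without untreated replicate 1 or 3 or previously treated replicate 1 or 2, and CSF1 without untreated replicate 2 or 3 or previously treated replicate 1 or 2. Their log2 changes were 2.16 to 3.37, 1.91 to 2.66 and 0.99 to 1.24 over the 6 single omissions.

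Among 26 tested genes of the IL-1 receptor and NF-κB pathway, 1 was called. TNFAIP3 encodes A20, the ubiquitin-editing inhibitor that closes the NF-κB loop. It rose from 8.0, 6.04 and 4.91 CPM to 16.2, 14.2 and 10.2 CPM, a log2 change of 1.09 ± 0.21 (edgeR adjusted p = 0.00503), and lost its call without untreated replicate 3 or previously treated replicate 1 (adjusted p up to 0.0799). NFKB2, a subunit of the alternative pathway, missed the threshold at 1.05 ± 0.28 (edgeR adjusted p = 0.0526) and passed it with the replicate block (1.08, edgeR adjusted p = 0.0169, and 1.08, 0.00209, within the time point). Without the libraries of high mitochondrial share NFKB2 did not pass (0.79, edgeR adjusted p = 0.0811). Its edgeR adjusted p reached 0.304 over the single omissions. The inhibitor NFKBIA passed the adjusted p but not 2-fold (0.82 ± 0.19, edgeR adjusted p = 0.0241). TLR4, the receptor for bacterial lipopolysaccharide, was called from low counts (0.215, 0.257 and 0.196 CPM untreated, 1.9, 1.3 and 0.841 CPM previously treated, edgeR adjusted p = 0.0325), a call lost without 5 of the 6 libraries in turn. In the AP-1 and MAP kinase feedback list, 1 of 24 tested genes was called. DUSP5, a nuclear phosphatase of ERK, rose from 27.2, 13.9 and 19.4 CPM to 53.4, 47.1 and 58.5 CPM (log2 change 1.39 ± 0.30, edgeR adjusted p = 0.012), lost without untreated replicate 2 or 3 or previously treated replicate 1.

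Interferon-stimulated and antigen-processing genes leaned upward. Of 35 tested interferon-stimulated genes, 3 were called, all higher, and 26 had a positive change, with a list median of 0.43 on the log2 scale. OAS1, an enzyme that senses double-stranded RNA and activates RNase L, rose from 20.4, 17.3 and 15.5 CPM to 47.2, 50.2 and 31.5 CPM, a log2 change of 1.27 ± 0.19 (edgeR adjusted p = 0.000291), and held without any 1 library. The GTPases GBP1 and GBP3 are neighbours on chromosome 1. GBP1 rose from 0.483, 1.16 and 0.147 CPM to 3.59, 4.42 and 2.66 CPM (log2 change 2.81 ± 0.57, edgeR adjusted p = 0.00816) and GBP3 from 1.88, 3.86 and 1.23 CPM to 7.86, 8.96 and 5.23 CPM (1.74 ± 0.42, edgeR adjusted p = 0.0272). Guanylate-binding proteins are close paralogs, so reads shared between them may have been divided or dropped. GBP1 lost its call without untreated replicate 3 or previously treated replicate 2 (log2 changes of 2.24 to 3.48 over the single omissions). GBP3 lost it without untreated replicate 1 or 3 or previously treated replicate 1 or 2. PSMB9, a subunit that interferon adds to the proteasome, was the 1 called gene of 16 tested in MHC class I presentation. It stood at 6.23, 5.4 and 5.06 CPM untreated and 12.1, 13 and 11.9 CPM previously treated, 2.21-fold higher with no overlap (edgeR adjusted p = 0.00114). In that list 14 of 16 changes were positive, and the median was 0.41. CD274, which encodes PD-L1, had 1.03 ± 0.904 and 1.51 ± 0.685 CPM (mean ± SD, n = 3 each), a log2 change of 0.73 ± 0.52 (edgeR adjusted p = 0.78). None of 11 tested immune checkpoint ligands was called.

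**Figure D2:**
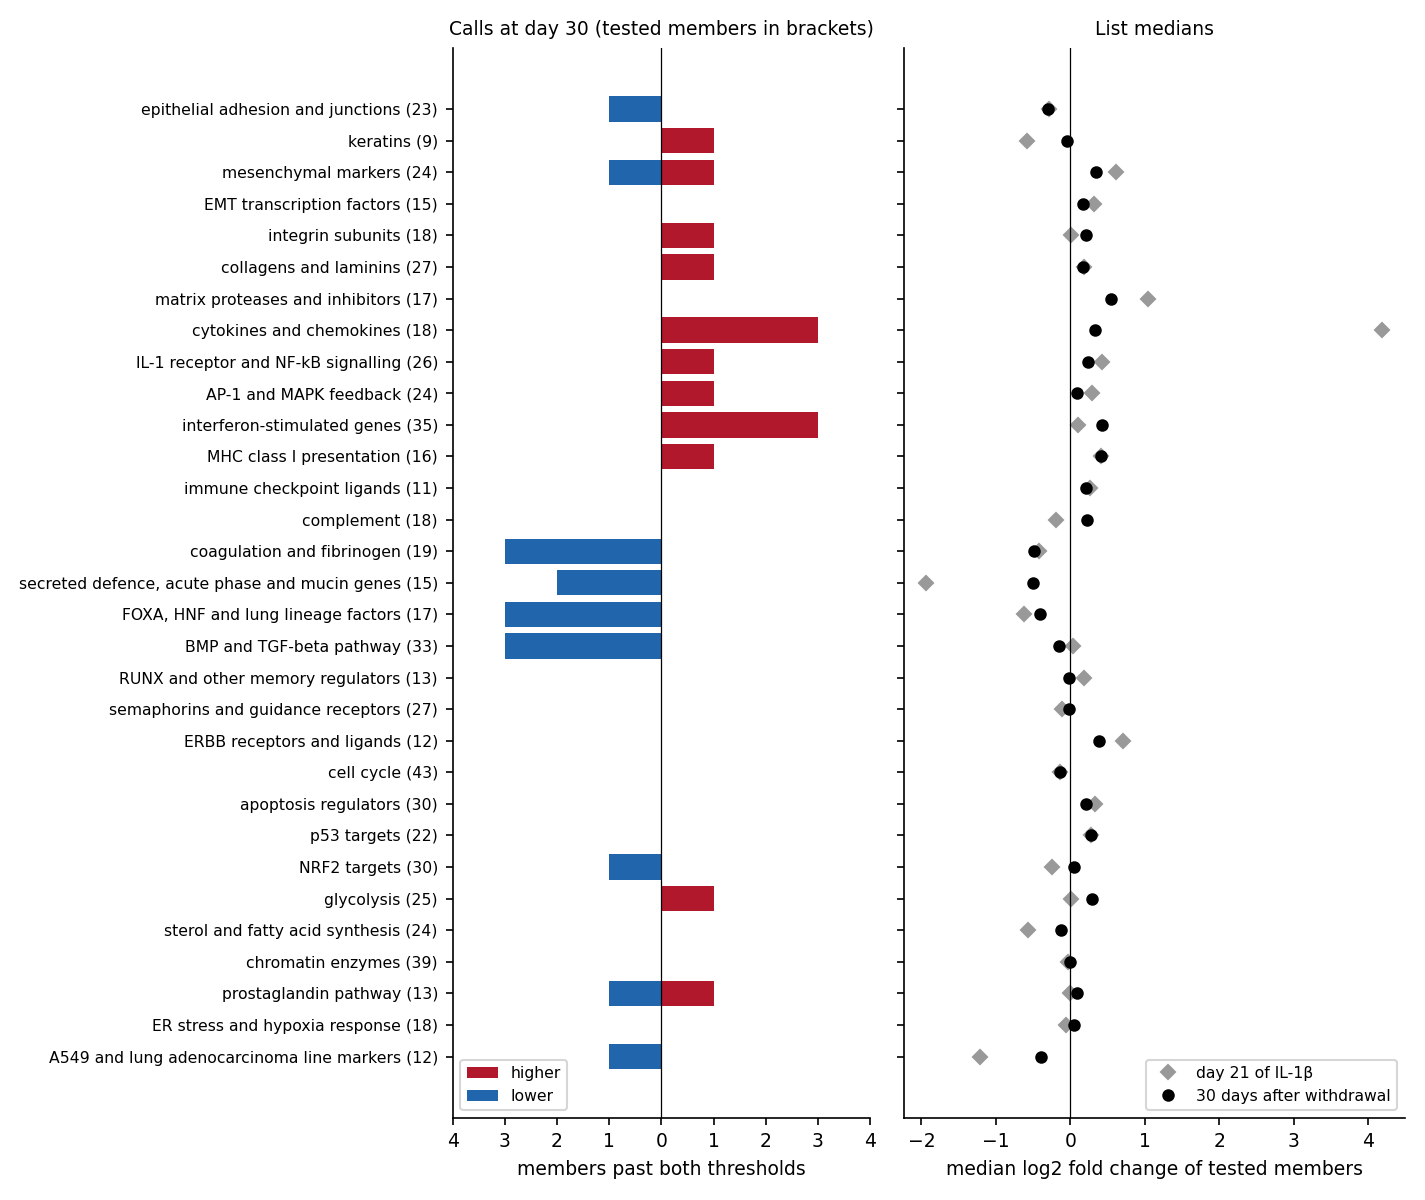
The left panel gives, for each gene list with at least 5 tested members, how many members were higher (red, to the right) or lower (blue, to the left) at day 30, and the right panel the median log2 fold change of all tested members at day 30 (black circles) and at day 21 of IL-1β (grey diamonds). No list has more than 3 called members in a direction, and the cytokine median lies at 4.18 at day 21 and 0.33 at day 30.

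In all, 659 distinct genes of the 34 lists were tested and 30 (4.55%) were called, 15 higher and 15 lower, beside 0.897% of all tested genes. The lists were chosen with earlier results of these data known, so this share is a description of the chosen genes only.

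A block of keratin genes on chromosome 12 was higher in the previously treated cells. These are type II keratins of the hair kind, which form the intermediate filaments of hair and nail and are not usual for lung epithelium. The block was put together after its values were seen, and not all of its members fall under the rule for naming genes. KRT81 (chr12:52679697-52685318, minus strand) stood at 106, 59.5 and 57.6 CPM untreated and 433, 382 and 304 CPM previously treated, a log2 change of 2.33 ± 0.26 (edgeR adjusted p = 4.6e-06). KRT86, whose gene (chr12:52643084-52702947, plus strand) encloses KRT81 on the opposite strand, had 11.8, 8.22 and 7.52 CPM and 47.5, 51.4 and 32.7 CPM (2.25 ± 0.25, edgeR adjusted p = 4.6e-06). The pseudogene KRT87P had 13.6, 10.2 and 7.02 CPM and 46.9, 45.1 and 35.1 CPM (2.04 ± 0.25, edgeR adjusted p = 1.31e-05). Further along, KRT83 rose from 4.21 ± 1.57 to 18.1 ± 4.18 CPM (mean ± SD, n = 3 each), KRT85 from 1.75 ± 0.489 to 6.66 ± 2.02 CPM and KRT84 from 0.266 ± 0.104 to 2.48 ± 1.76 CPM, with log2 changes of 2.09 ± 0.40, 1.90 ± 0.28 and 3.30 ± 0.62 (edgeR adjusted p = 0.00491, 0.000291 and 0.00371). These genes are near-identical copies of each other in long stretches, so how reads were shared among KRT81, KRT83, KRT86 and KRT87P is uncertain and their single changes may not be independent. Summed over the 6 genes the untreated libraries had 139.7, 82.9 and 77.2 CPM and the previously treated ones 562, 505 and 393 CPM, a ratio of means of 4.87, given without a test since these genes had been called already. The next keratins on either side were not called. KRT7, an abundant keratin of simple epithelia, had 1461 and 1772 CPM on average (0.28 ± 0.18, edgeR adjusted p = 0.756), KRT80 had a log2 change of -0.04 ± 0.38 (edgeR adjusted p = 0.986), and KRT82, with at most 19 reads in a library, 1.06 ± 0.64 (edgeR adjusted p = 0.728). The simple epithelial pair KRT8 and KRT18 were at -0.62 and -0.52 on the log2 scale (edgeR adjusted p = 0.60 and 0.743). Without any 1 library KRT81, KRT86, KRT87P and KRT85 kept their calls, while KRT83 lost it without untreated replicate 3 and KRT84 without untreated replicate 3 or previously treated replicate 2, with 2.58 without the latter.

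**Figure D3:**
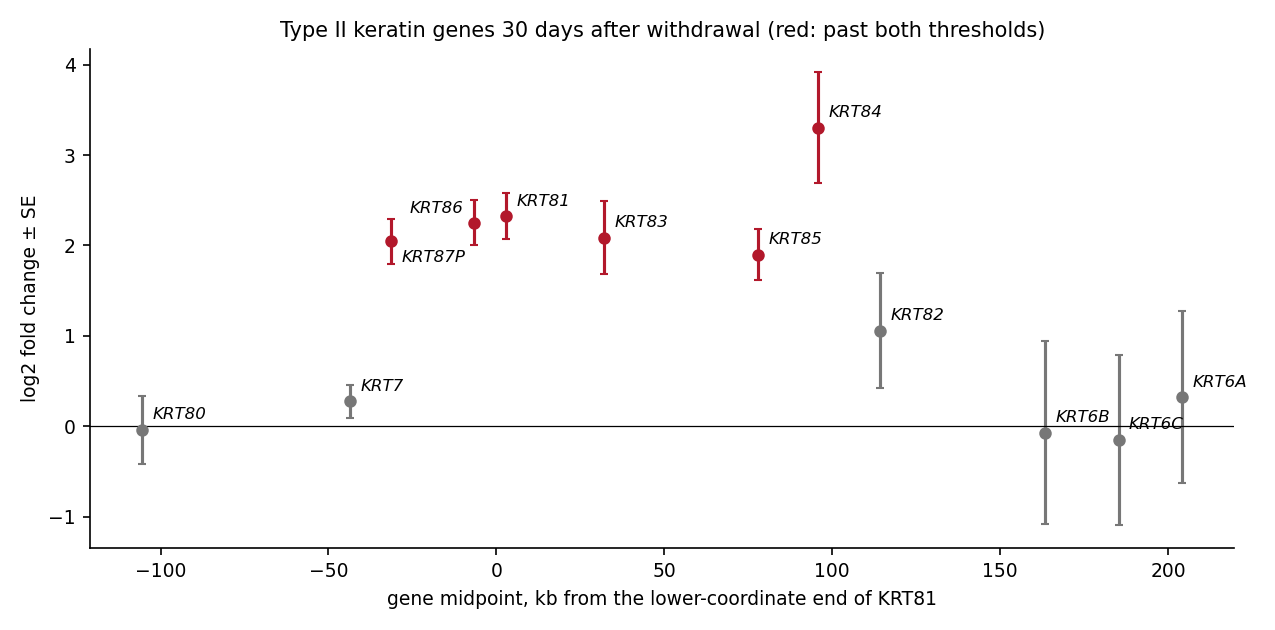
Log2 fold change at day 30, with its standard error, of the tested type II keratin genes, plotted by the distance of the gene's midpoint from the lower-coordinate end of KRT81 in kb. The 6 genes in red, from KRT87P to KRT84, passed both thresholds with changes of 1.90 to 3.30, and the grey genes on either side, from -0.15 to 1.06, did not.

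Most mesenchymal markers lay slightly above the untreated level, and the called ones went opposite ways. FN1, fibronectin, a matrix protein widely used as a mesenchymal marker, was lower in the previously treated cells, at 78.1, 85.1 and 101 CPM against 239, 269 and 374 CPM, a log2 change of -1.74 ± 0.26 (edgeR adjusted p = 0.000291). Every treated library lay below every untreated one, and the call held without any 1 library. TNC, the matricellular protein tenascin C, was higher (0.376, 1.16 and 0.196 CPM untreated, 3.86, 3.96 and 0.981 CPM previously treated, log2 change 2.60 ± 0.58, edgeR adjusted p = 0.0173). Its groups overlapped, it lost its call without untreated replicate 1 or 3 or previously treated replicate 1 or 2, and its log2 change was 3.31 without untreated replicate 2. These were the called genes among 24 tested mesenchymal markers, of which 21 had positive changes and the median was 0.35. At an unadjusted edgeR p under 0.05, 9 were higher and 1 lower, and 4 passed the adjusted p whatever their fold change. Of all tested genes, 8.35% lay under that unadjusted p in either direction. Vimentin (VIM) was at 753 ± 247 and 791 ± 47.7 CPM (mean ± SD, n = 3 each), a log2 change of 0.07 ± 0.24 (edgeR adjusted p = 0.949) whose sign turned without untreated replicate 1 or 3. N-cadherin (CDH2) had 0.12 ± 0.17 (edgeR adjusted p = 0.883). ITGB3, the β3 chain of the vitronectin receptor, was the 1 called integrin of 18 tested, rising from 6.39, 5.65 and 4.03 CPM to 24.5, 23.2 and 15.2 CPM (3.92-fold, edgeR adjusted p = 8.33e-05). COL13A1, a transmembrane collagen, rose from 2.31, 1.41 and 0.737 CPM to 9.29, 10.0 and 3.27 CPM (log2 change 2.32 ± 0.49, edgeR adjusted p = 0.0104) and lost its call without untreated replicate 3 or previously treated replicate 1 or 2. Of 17 tested matrix proteases and inhibitors none was called, although 14 had positive changes and the median was 0.54, with 8 higher and 1 lower at an unadjusted edgeR p under 0.05.

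The EMT transcription factors held no call. Of 15 tested, 0 passed both thresholds in edgeR and 0 reached an unadjusted p under 0.05, which 8.35% of all tested genes reached. SNAI2, which encodes SLUG, had 1.99, 3.86 and 1.13 CPM untreated and 3.53, 4.94 and 3.04 CPM previously treated, a log2 change of 0.80 ± 0.49 (edgeR adjusted p = 0.732), beside 3.23 ± 0.49 at day 21 of exposure. ZEB2 had a log2 change of 0.78 ± 0.41 (edgeR adjusted p = 0.657). Without the libraries of high mitochondrial share ZEB2 passed both thresholds (1.13, edgeR adjusted p = 0.00863), and over the single omissions its change ran from 0.45 to 1.45, the highest without untreated replicate 2. On the epithelial side CDH1, E-cadherin, stood at 252, 248 and 290.4 CPM untreated and 138, 150.3 and 229.9 CPM previously treated (-0.61 ± 0.29, edgeR adjusted p = 0.581), and the desmosomal protein DSP at 238 and 127 CPM on average (-0.91 ± 0.30, edgeR adjusted p = 0.205). A p that misses the threshold does not show that these levels were equal. CLDN2, a channel-forming claudin of leaky epithelia, was the 1 called gene of 23 tested junction genes. It fell from 27.4, 26.5 and 40.5 CPM to 7.86, 8.96 and 10.3 CPM, a log2 change of -1.80 ± 0.30 (edgeR adjusted p = 0.00117), with no overlap and no dependence of the call on any 1 library. The list median was -0.31, with 15 negative of 23 changes.

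Of 17 tested lineage factors 3 were called, all lower. HNF4A, a nuclear receptor that governs hepatocyte and enterocyte genes, had 17.8, 9.77 and 27.2 CPM untreated and 4.27, 2.92 and 5.23 CPM previously treated, a log2 change of -2.14 ± 0.42 (edgeR adjusted p = 0.00605). Untreated replicate 2 was the lowest untreated library and lay above all treated ones. FOXA1, a pioneer factor of endodermal and hormone-responsive epithelia, fell from 3.65, 6.3 and 6.34 CPM to 1.97, 2.47 and 2.38 CPM (2.37-fold, edgeR adjusted p = 0.00759). In the whole list 13 changes were negative and 4 positive, with a median of -0.41. HNF4A lost its call without untreated replicate 3 or previously treated replicate 1 or 2, and FOXA1 without untreated replicate 3 or previously treated replicate 1. The log2 change over these omissions ranged from -2.43 to -1.74 for HNF4A and -1.47 to -1.10 for FOXA1.

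Coagulation genes were lower where they were called, 3 in all. F5, coagulation factor V, was reduced to traces, with 27, 18 and 33 reads untreated and 0, 2 and 2 reads previously treated, a ratio of summed counts of 21.5 (95% exact counting interval 8.07 to 80.9, edgeR adjusted p = 0.000864). FGB, the fibrinogen β chain, had 13.5, 34.6 and 12.5 CPM untreated and 2.31, 3.38 and 2.71 CPM previously treated (log2 change -2.83 ± 0.45, edgeR adjusted p = 0.000752), and without untreated replicate 2, its highest library, the change was -2.21. FGA, the α chain encoded beside it, had 26.7, 40.9 and 35 CPM and 8.47, 8.51 and 12.8 CPM (-1.78 ± 0.41, edgeR adjusted p = 0.0233), a call lost without untreated replicate 2 or 3 or previously treated replicate 1 or 2. In the list of 19 tested coagulation genes 14 changes were negative and the median was -0.49. Genes outside the list among the 20 that fell furthest included APOH, a plasma glycoprotein (6.12, 16.2 and 12.6 CPM to 1.36, 1.69 and 2.71 CPM, edgeR adjusted p = 0.00127), BAAT, which conjugates bile acids (log2 change -2.70 ± 0.61), HGD, an enzyme of tyrosine breakdown (-2.60 ± 0.50), PPARGC1A, a coactivator of mitochondrial and gluconeogenic genes (-2.56 ± 0.56), MGAM, an intestinal maltase (-2.37 ± 0.53), and TM4SF20, a tetraspan membrane protein (-2.89 ± 0.48). APOH and TM4SF20 kept their calls without any 1 library. HGD lost it without previously treated replicate 2 and PPARGC1A without untreated replicate 2 or previously treated replicate 1 or 2. MGAM lost it without previously treated replicate 1 or 2 and BAAT without untreated replicate 2 or previously treated replicate 1, 2 or 3.

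The region before the transcription start was read for 3 of these genes that fell, for CLDN2, and for PTPRD and GBP3 that rose, because each holds 1 of the motifs scanned, and these genes were chosen after their values were seen. RefSeq lists 2 starts each for HNF4A and CLDN2 and 3 for PTPRD. The motifs were the E-box CAGGTG, read on both strands and the form bound by SNAI and ZEB repressors, and the AP-1 motif TGANTCA, which reads the same on both strands. The sequences are the 250 bases before the start listed first by RefSeq for each gene on GRCh38.p14, 5′ to 3′ on the strand of the gene, with the motif in capitals. The E-box lies -202 bases from the start for HNF4A (chromosome 20), -192 for F5 (chromosome 1), -122 for FOXA1 (chromosome 14) and -56 for PTPRD (chromosome 9), and the AP-1 motif -60 for CLDN2 (chromosome X) and -23 for GBP3 (chromosome 1), counted to the first base of the motif.
HNF4A, chr20:44355449-44355698, plus strand: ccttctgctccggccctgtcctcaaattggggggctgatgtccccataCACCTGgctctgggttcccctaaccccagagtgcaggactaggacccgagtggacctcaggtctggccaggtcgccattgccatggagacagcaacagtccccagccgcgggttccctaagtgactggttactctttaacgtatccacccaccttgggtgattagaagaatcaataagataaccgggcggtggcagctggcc
F5, chr1:169586482-169586731, minus strand: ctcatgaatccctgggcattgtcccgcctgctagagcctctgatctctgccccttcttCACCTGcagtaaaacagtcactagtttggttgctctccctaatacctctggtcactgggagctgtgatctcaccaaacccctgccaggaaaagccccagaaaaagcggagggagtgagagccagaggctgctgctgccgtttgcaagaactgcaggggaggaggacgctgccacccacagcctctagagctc
FOXA1, chr14:37595250-37595499, minus strand: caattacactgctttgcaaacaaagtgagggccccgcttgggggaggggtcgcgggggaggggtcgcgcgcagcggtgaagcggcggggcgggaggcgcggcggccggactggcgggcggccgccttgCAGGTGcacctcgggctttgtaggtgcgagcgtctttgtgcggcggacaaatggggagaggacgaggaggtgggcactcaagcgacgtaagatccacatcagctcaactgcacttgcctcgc
PTPRD, chr9:10613003-10613252, minus strand: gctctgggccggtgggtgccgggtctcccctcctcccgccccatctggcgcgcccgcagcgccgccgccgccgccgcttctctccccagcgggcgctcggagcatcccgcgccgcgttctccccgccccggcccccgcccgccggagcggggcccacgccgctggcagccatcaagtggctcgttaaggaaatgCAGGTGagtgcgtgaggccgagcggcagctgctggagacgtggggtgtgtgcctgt
CLDN2, chrX:106899914-106900163, plus strand: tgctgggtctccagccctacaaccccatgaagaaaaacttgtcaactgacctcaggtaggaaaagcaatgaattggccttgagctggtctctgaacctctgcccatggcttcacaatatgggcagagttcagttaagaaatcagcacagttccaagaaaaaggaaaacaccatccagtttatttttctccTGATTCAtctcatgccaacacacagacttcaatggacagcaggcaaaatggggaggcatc
GBP3, chr1:89022867-89023116, minus strand: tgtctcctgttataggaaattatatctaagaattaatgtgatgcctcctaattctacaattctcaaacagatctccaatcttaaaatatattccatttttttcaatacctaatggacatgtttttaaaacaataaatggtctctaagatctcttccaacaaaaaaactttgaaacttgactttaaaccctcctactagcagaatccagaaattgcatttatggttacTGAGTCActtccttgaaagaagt
The E-box was present in 13 of the 69 genes that fell and have an entry (18.8%), in 12 of 59 that rose (20.3%), in 15.8% of the 11641 tested genes with an entry and in 17.5% of all 27305 genes of the table. The AP-1 motif was present in 5 of 69 (7.25%), 5 of 59 (8.47%), 4.28% of tested genes and 6.6% of the table. These are counts of letters in a short window. No binding was measured, and no difference between the shares was tested.

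Secreted defence genes were lower where they were called. DEFB1, the constitutive β-defensin of epithelia, fell from 29.6, 12 and 39.4 CPM to 3.19, 3.9 and 5.84 CPM (log2 change -2.65 ± 0.54, edgeR adjusted p = 0.00759), and CEACAM6, an adhesion glycoprotein of mucosal surfaces, from 4.4, 6.3 and 18.2 CPM to 0.678, 0.779 and 2.66 CPM (-2.77 ± 0.64, edgeR adjusted p = 0.0205). In CEACAM6 replicate 3 was the highest library of both groups, and the change was -1.89 without untreated replicate 3 and -3.72 without previously treated replicate 3. Both genes lost their calls without untreated replicate 3 or previously treated replicate 1 or 2. They were 2 of 15 tested defence, acute phase and mucin genes, none was higher, and the median was -0.49. The airway mucin MUC5B missed the threshold, with 252, 123 and 254 CPM untreated and 81.8, 85.1 and 86.3 CPM previously treated (log2 change -1.32 ± 0.58, edgeR adjusted p = 0.49). GPX2, a glutathione peroxidase of gut and lung epithelium and an NRF2 target, fell from 14.8, 8.48 and 36.7 CPM to 2.85, 3.57 and 7.1 CPM (-2.15 ± 0.48, edgeR adjusted p = 0.0166). It lost its call without untreated replicate 3 or previously treated replicate 1 or 2, with -1.37 without untreated replicate 3, and was the 1 called of 30 tested NRF2 targets. Complement genes had no call among 18 tested, and C5 missed the threshold at -1.25 ± 0.37 (edgeR adjusted p = 0.104). With the replicate block C5 was called as lower (-1.30, edgeR adjusted p = 0.0172, and -1.33, 0.000183, within the time point). Without the libraries of high mitochondrial share C5 was not called (-1.06, edgeR adjusted p = 0.434). Its edgeR adjusted p reached 0.599 over the single omissions.

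In the BMP and TGF-β pathway 3 genes fell. INHBB, the subunit of activin B, had 143, 136 and 193 CPM untreated and 41.4, 41.8 and 68.5 CPM previously treated, 3.11-fold lower (log2 change -1.64 ± 0.19, edgeR adjusted p = 1.29e-05), and held without any 1 library. BAMBI, a decoy receptor that dampens TGF-β and BMP signals, fell from 8.43, 7.58 and 9.14 CPM to 3.32, 3.7 and 3.92 CPM (-1.20 ± 0.22, edgeR adjusted p = 0.00344), also independent of any 1 library. The ligand BMP4 fell from 14.2, 9.64 and 22.9 CPM to 5.76, 5.0 and 8.27 CPM (-1.30 ± 0.32, edgeR adjusted p = 0.0371) and lost its call without untreated replicate 1 or 3 or previously treated replicate 1 or 2, with log2 changes of -1.54 to -0.91. These 3 of 33 tested members were the called ones, none was higher, and the inhibitor SMAD6 missed the threshold at -0.69 ± 0.24 (edgeR adjusted p = 0.234). In prostaglandin synthesis the constitutive cyclooxygenase PTGS1 was higher (4.51, 1.67 and 3.24 CPM to 10.0, 9.94 and 6.12 CPM, edgeR adjusted p = 0.00956), and PLA2G4A, the phospholipase that frees arachidonic acid, was lower (3.55, 5.27 and 8.3 CPM to 1.49, 1.23 and 2.43 CPM, edgeR adjusted p = 0.0178). PTGS1 lost its call without untreated replicate 2 or 3 or previously treated replicate 1 or 2 and PLA2G4A without untreated replicate 3 or previously treated replicate 1 or 2. Of 25 tested glycolytic genes 1 was called. HK1, the housekeeping hexokinase, rose from 48.5, 56.8 and 34.6 CPM to 101, 107 and 85.5 CPM (log2 change 1.07 ± 0.21, edgeR adjusted p = 0.00491), lost without untreated replicate 3, and 21 of 25 changes were positive with a median of 0.29.

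The other genes among the 20 that fell furthest had mixed roles. SHROOM3, an actin-binding protein of apical constriction, fell from 7.74, 6.81 and 10.4 CPM to 0.746, 1.23 and 2.2 CPM (log2 change -2.55 ± 0.28, edgeR adjusted p = 4.6e-06), and PDE3A, a cyclic nucleotide phosphodiesterase, from 7.04, 8.48 and 10.1 CPM to 1.36, 2.14 and 1.59 CPM (-2.33 ± 0.38, edgeR adjusted p = 0.000947), and both calls held without any 1 library. NTRK3, the receptor of neurotrophin 3, was the most abundant of the 20, at 73, 53.8 and 91.8 CPM untreated and 11, 13.1 and 24.5 CPM previously treated (-2.17 ± 0.46, edgeR adjusted p = 0.0124), lost without untreated replicate 3 or previously treated replicate 1 or 2. TOX3, a high mobility group box factor, was near the floor at 10, 7 and 33 and 0, 1 and 2 reads, a ratio of 18.4 (95% exact counting interval 5.94 to 92.1). PHYHIPL (14, 10 and 18 and 3, 1 and 2 reads, ratio 7.72, interval 3.27 to 22.2) and the non-coding LINC02747 (11, 4 and 8 and 0, 0 and 2 reads, ratio 12.7, interval 3.13 to 111) were as low. EPS8L3, a regulator of the actin cytoskeleton, had 17, 8 and 37 and 4, 0 and 2 reads, and EEF1A1P45, a processed copy of an abundant elongation factor gene whose reads are uncertain for that reason, had a log2 change of -2.25 ± 0.54. The calls were lost without untreated replicate 3 for TOX3, without untreated replicate 2 or 3 or previously treated replicate 1, 2 or 3 for PHYHIPL and without untreated replicate 1, 2 or 3 or previously treated replicate 1 or 2 for LINC02747. They were also lost without untreated replicate 3 or previously treated replicate 2 or 3 for EPS8L3 and without untreated replicate 1 or 3 or previously treated replicate 1 or 2 for EEF1A1P45. Over the single omissions the fitted log2 changes ran from -4.68 to -3.39 for TOX3, -6.01 to -3.02 for LINC02747, -4.40 to -2.86 for EPS8L3 and -3.31 to -1.92 for EEF1A1P45. LINC02747 also lost its call with the replicate block within the time point (edgeR adjusted p = 0.163). A further member carries only an identifier.

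Lists on growth and survival held no call. None of 43 tested cell cycle genes was called (median -0.14), and the proliferation marker MKI67 had 957, 2081 and 719 CPM untreated and 878, 1113 and 683 CPM previously treated, a log2 change of -0.49 ± 0.40 (edgeR adjusted p = 0.804). All 22 tested p53 targets had a positive change, with a median of 0.28, but 0 were called by edgeR and 2 reached an unadjusted p under 0.05. CDKN1A, the cell cycle inhibitor p21, was at 0.79 ± 0.49 (edgeR adjusted p = 0.74). Apoptosis regulators (30 tested, median 0.21), chromatin enzymes (39 tested), sterol and fatty acid synthesis (24 tested, median -0.12), ER stress and hypoxia (18 tested, median 0.05), semaphorins and guidance receptors (27 tested, median -0.02) and ERBB receptors and ligands (12 tested, median 0.38) likewise had none. With the replicate block within the time point ERBB3, a receptor of neuregulins, was called as lower (-1.26, edgeR adjusted p = 0.0285), beside -1.25 ± 0.35 (edgeR adjusted p = 0.0726) without it. The joint replicate block did not call ERBB3 (-1.25, edgeR adjusted p = 0.0658). Nor was it called without the libraries of high mitochondrial share (-1.32, edgeR adjusted p = 0.21). At an unadjusted edgeR p under 0.05, 5 cell cycle genes were lower and 0 higher, and 4 ERBB receptors and ligands were higher and 1 lower. Of all tested genes, 8.35% lay under that p in either direction, so these counts and that of the p53 targets are descriptions only. RUNX2, an osteogenic transcription factor on a list of regulators tied to memory, passed the adjusted p but not 2-fold (9.08, 8.87 and 7.37 CPM to 17.2, 18.4 and 11.7 CPM, log2 change 0.90 ± 0.20, edgeR adjusted p = 0.0173).

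Markers of other cell types had low summed levels, highest for the immune markers. Of 14 immune cell markers 3 passed the filter on low counts, as did 1 of 10 fibroblast and 2 of 9 endothelial markers, and none was called. In all 6 libraries 8 of the 14 immune markers had at most 3 reads. Their summed levels were 9.38 to 19 CPM untreated and 13.3 to 16.1 CPM previously treated for immune markers, 2.11 to 4.51 and 1.42 to 2.06 CPM for fibroblast markers, and 1.29 to 2.31 and 1.87 to 1.9 CPM for endothelial markers. Of 12 tested markers of A549 and lung adenocarcinoma lines 0 were called higher and 1, GPX2, was called lower. Of these changes 9 were negative and 3 positive, with a median of -0.39. At an unadjusted edgeR p under 0.05, 4 were lower and 0 higher, beside 8.35% of all tested genes in either direction. Summed over all 15 listed markers the levels were 15088 to 19337 CPM untreated and 11730 to 14645 CPM previously treated. The most abundant of these markers, ALDH1A1, stood at 5117, 7545 and 6377 CPM untreated and 3780.1, 4135 and 4858 CPM previously treated. ALDH1A1 did not pass the adjusted p in the main fit, which had no block. Its log2 change was -0.57 with the replicate block (edgeR adjusted p = 0.0249), short of 2-fold. Without the libraries of high mitochondrial share it was -0.41 (edgeR adjusted p = 0.292).

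The changes at day 30 were set beside those during exposure and earlier after withdrawal, each measured against its own untreated libraries. Of the 172 genes, 160, 159 and 161 had the same sign on days 6, 15 and 21 of IL-1β, and 170 and 172 on days 6 and 15 after withdrawal. Called in the same direction were 91 at day 6 of exposure (52.9% of the 172, and 17.1% of 531 genes, 2.77% of those tested), 110 at day 15 (64% of the 172, and 13.5% of 814 genes, 4.24% of those tested) and 118 at day 21 (68.6% of the 172, and 14.4% of the 817 genes called then, 4.26% of those tested). There were 110 at day 6 after withdrawal (64% of the 172, and 31.8% of the 346 called then, 1.8% of those tested) and 99 at day 15 after withdrawal (57.6% of the 172, and 54.1% of the 183 called then, 0.954% of those tested). A total of 55 were called at all 6 time points. The 83 higher genes had a median response of 1.63 on day 21 of exposure and of 1.74 a month after withdrawal on the log2 scale, and the 89 lower genes of -1.83 and -1.62, a selection made on the day 30 values.

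**Figure D4:**
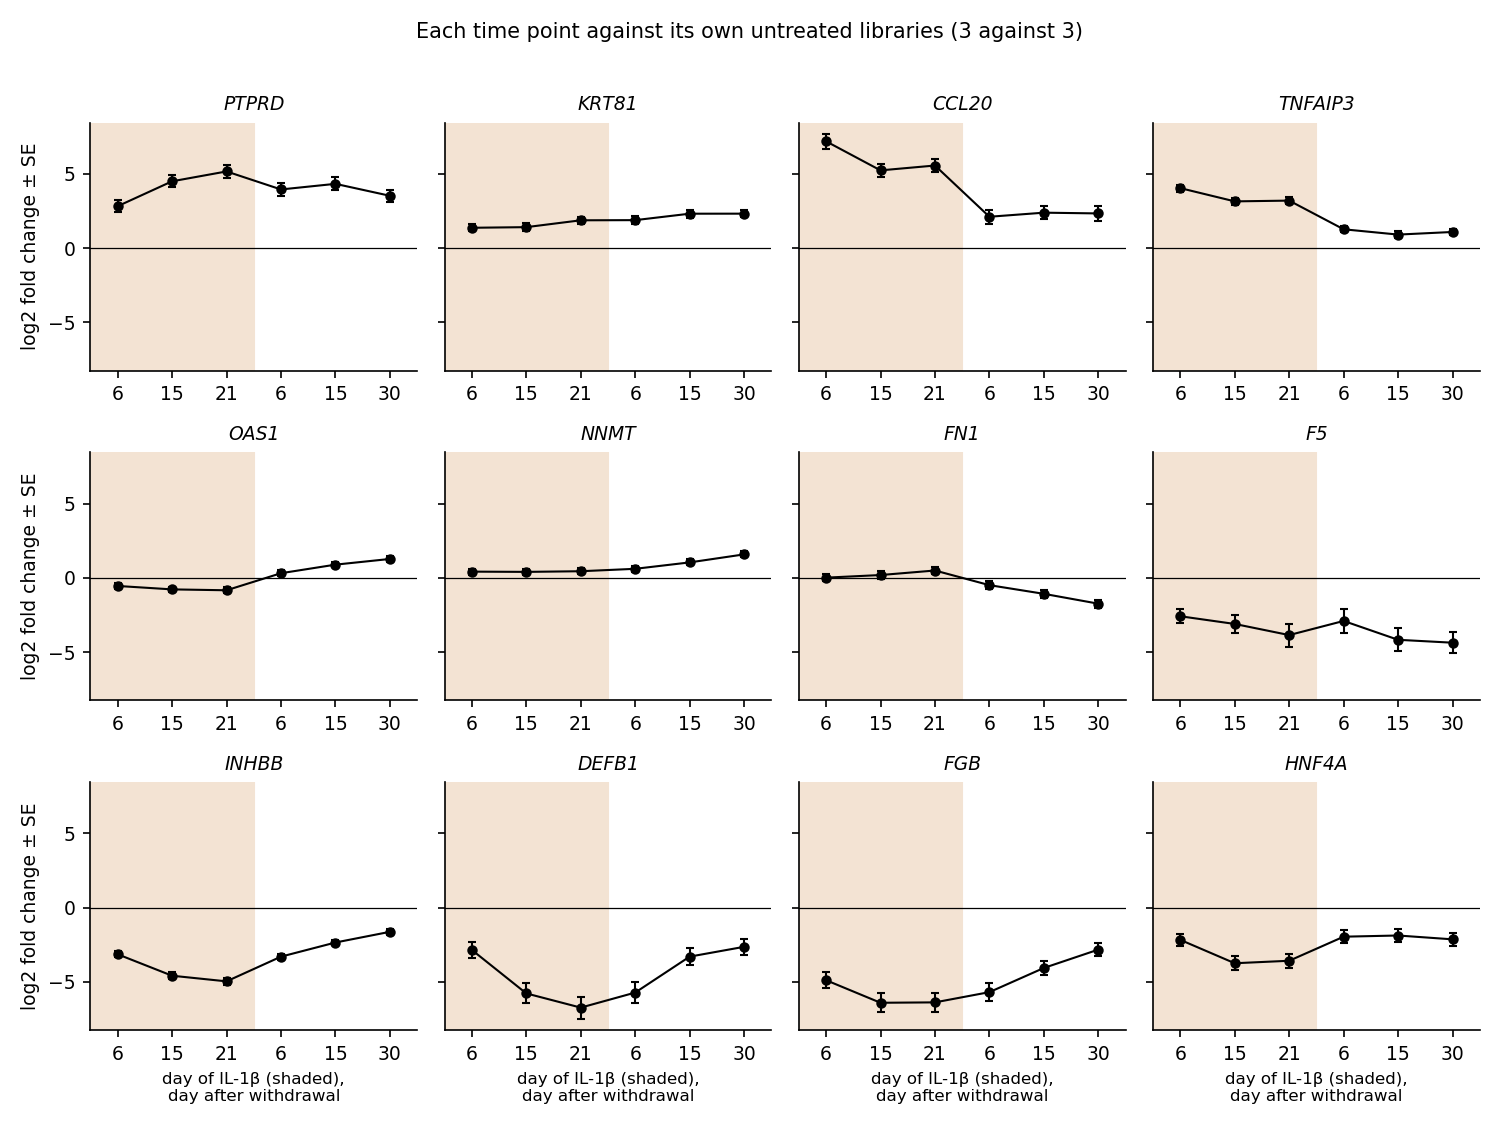
Log2 fold change against the untreated libraries of the same time point, with its standard error, for 12 genes at days 6, 15 and 21 of IL-1β (shaded) and days 6, 15 and 30 after withdrawal. KRT81, PTPRD, F5 and HNF4A keep their sign at all 6 time points, CCL20 and TNFAIP3 drop to a lower positive value after withdrawal, and OAS1 and FN1 change sign.

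The difference between the response at day 30 and that at day 21 was tested directly, and 120 genes (0.626%) passed both thresholds for it, 63 with a higher and 57 with a lower response at day 30. With the replicate number nested in the time point as a block there were 241. Of the 172 genes, 16 were among them. In 10 the change at day 30 had the sign of day 21 and was smaller, 4 higher genes and 6 lower ones. CCL20 fell from a log2 change of 5.57 ± 0.45 at day 21 to 2.34 ± 0.51 at day 30 after withdrawal (edgeR adjusted p for the difference = 0.027), and TNFAIP3 from 3.21 ± 0.22 to 1.09 ± 0.21 (edgeR adjusted p = 0.000135). INHBB went from -4.97 ± 0.23 to -1.64 ± 0.19 (edgeR adjusted p = 1.17e-08), DEFB1 from -6.74 ± 0.74 to -2.65 ± 0.54 (edgeR adjusted p = 0.0234), FGB from -6.39 ± 0.64 to -2.83 ± 0.45 (edgeR adjusted p = 0.0249) and FGA from -4.72 ± 0.52 to -1.78 ± 0.41 (edgeR adjusted p = 0.0197). The difference lost its call without untreated replicate 1, 2 or 3 or previously treated replicate 2 or 3 for CCL20 (edgeR adjusted p up to 0.106). It was lost without untreated replicate 2 or previously treated replicate 3 for DEFB1, without untreated replicate 1 or 3 or previously treated replicate 2 or 3 for FGB and without untreated replicate 1 or previously treated replicate 3 for FGA. By contrast the difference was small beside its error for KRT81 (0.45 ± 0.35, edgeR adjusted p = 0.955), F5 (-0.51 ± 1.54, edgeR adjusted p = 0.965), ITGB3 (-0.19 ± 0.37, edgeR adjusted p = 0.957), CLDN2 (0.74 ± 0.42, edgeR adjusted p = 0.923) and FOXA1 (-0.24 ± 0.35, edgeR adjusted p = 0.955), which does not show that the responses were equal.

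**Figure D5:**
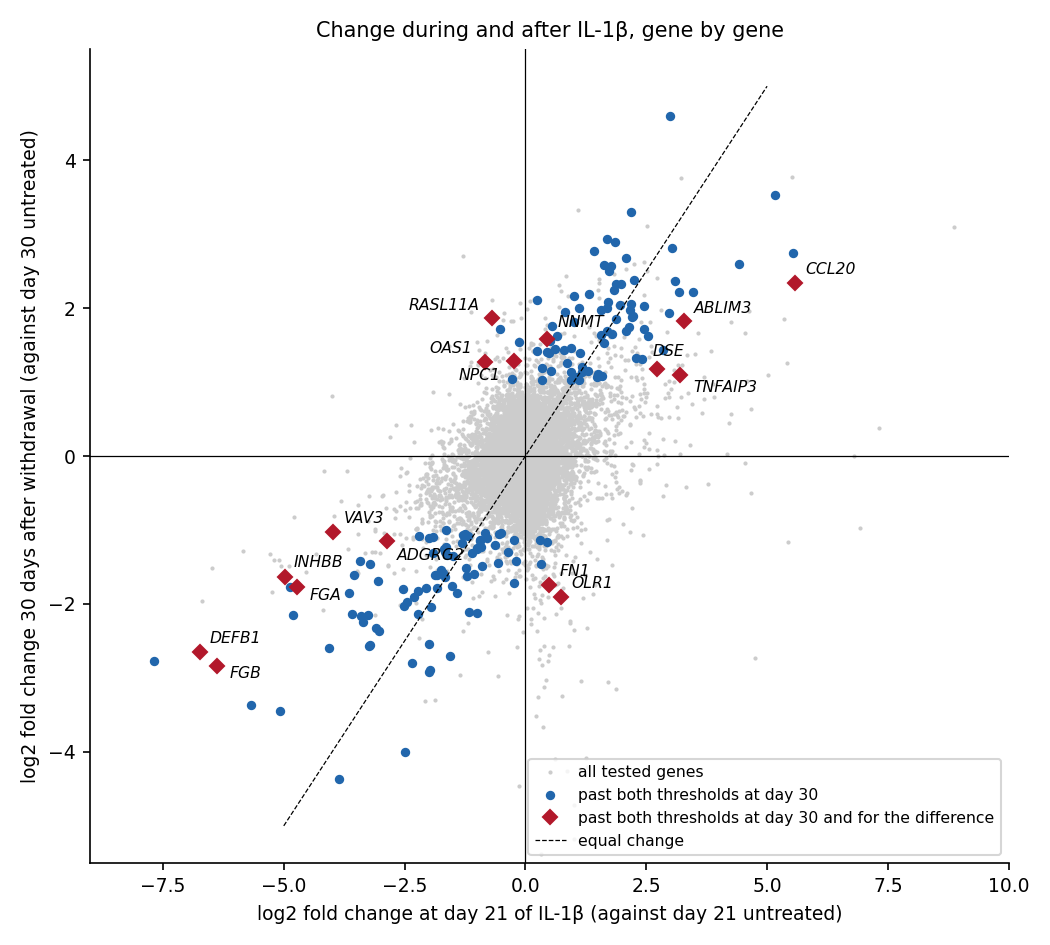
Log2 fold change at day 21 of IL-1β (horizontal) against that 30 days after withdrawal (vertical) for all 19180 tested genes (grey), the 172 called at day 30 (blue) and the 16 of these whose response also differed from day 21 (red diamonds, named). Red points nearer the horizontal axis than the dashed line of equal change have smaller responses at day 30, and OAS1, NPC1 and RASL11A lie in the upper left and FN1 and OLR1 in the lower right quadrant.

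Of the 172 genes, 43 were called at none of the 3 days of exposure, 24 higher and 19 lower, and for 5 of the 43 the difference from day 21 passed both thresholds. FN1 was at 0.50 ± 0.25 on the log2 scale at day 21 and -1.74 ± 0.26 at day 30 after withdrawal (difference -2.23 ± 0.36, edgeR adjusted p = 0.000947). At day 15 after withdrawal FN1 was at -1.07 ± 0.26. OAS1 went from -0.84 ± 0.19 to 1.27 ± 0.19 (difference 2.11 ± 0.27, edgeR adjusted p = 3.68e-05), and RASL11A, a small GTPase of the RAS family, from -0.70 ± 0.35 to 1.87 ± 0.36 (difference 2.56 ± 0.51, edgeR adjusted p = 0.00741), with 4.46, 1.67 and 3.78 CPM untreated and 13.9, 11 and 12.4 CPM previously treated. The remaining pair fell outside the rule for naming genes and is named because the count is small. NPC1, the lysosomal cholesterol exporter, was abundant at 246, 125 and 171 CPM untreated and 467, 411 and 443 CPM previously treated (difference 1.53 ± 0.31, edgeR adjusted p = 0.00847), and NNMT, which methylates nicotinamide, stood at 28.7, 26.6 and 18.1 CPM and 70.1, 79.3 and 70.1 CPM (difference 1.13 ± 0.28, edgeR adjusted p = 0.0496). The NNMT difference lost its call without untreated replicate 2 or 3 or previously treated replicate 1, 2 or 3 (edgeR adjusted p up to 0.169) and with the replicate block within the time point (edgeR adjusted p = 0.0588). The largest changes among the other 38 were those of TLR4, CLIC3, CCL26 and ZNF613 upward and PHYHIPL, CTTNBP2, PLA2G4A and NRXN3 downward. CCL26, an eosinophil-attracting chemokine, had 1.67, 0.514 and 0.737 CPM untreated and 4.75, 5.2 and 3.46 CPM previously treated, a log2 change of 2.11 ± 0.39 (edgeR adjusted p = 0.00371) beside 0.24 ± 0.36 at day 21, though the difference did not pass (edgeR adjusted p = 0.137). CTTNBP2, a cortactin-binding protein, fell from 3.81, 6.3 and 4.08 CPM to 1.02, 1.04 and 1.12 CPM (-2.12 ± 0.28, edgeR adjusted p = 5.57e-05) and held without any 1 library. CLIC3, an intracellular chloride channel family member (2.17 ± 0.54, edgeR adjusted p = 0.0371), lost its call without each of the 6 libraries in turn. ZNF613 (1.94 ± 0.45, and 2.61 without untreated replicate 1) lost it without untreated replicate 2 or 3 or previously treated replicate 1 or 2. NRXN3 (-1.62 ± 0.39) lost it without untreated replicate 2 or 3 or previously treated replicate 1 or 2 and CCL26 without untreated replicate 3, its change being 2.75 without untreated replicate 1.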

How the data were processed

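The authors deposited raw counts per gene, 1 table for each of 36 libraries, made according to the sources with TopHat2 2.0.14 and Bowtie2 2.2.5 on GRCh37 and HTSeq 0.6.1. The strand setting and the annotation release are not given in the sources used here. The deposited counts were used unchanged, and the 5 summary lines that name no gene were left out. Of 63677 genes, 39471 had a count and 19180 passed filterByExpr over the 12 groups of time point and treatment, to which samples were assigned by their labels. Counts were scaled by TMM and fitted to all 36 libraries with the edgeR 4.0.16 quasi-likelihood test (R 4.3.3, 24 residual degrees of freedom), and p-values were adjusted by Benjamini-Hochberg over all tested genes. The response at day 30 was previously treated minus untreated, and its difference from day 21 was an interaction contrast, each time point having its own untreated libraries. Fold changes are from the fit, with a prior count of 2 for levels on the log scale. For genes where every library of a group had at most 3 counts, the ratio of summed counts is given with an exact 95% interval, which covers counting error only. Counting error at the lowest depth was set by 10014699 counts on genes.

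The genes named were the 20 highest and 20 lowest past both thresholds with the same direction in all 3 pairs, every list member past both, key list members, those of these past both for the difference, and the 5 largest per direction called at no day of exposure. Others are said to be chosen after their values were seen. Some genes that the rule takes in are not reported here. The members and lists were chosen with earlier results of these data known. The deviations of same-numbered libraries from their group means correlated at 0.371, 0.464 and 0.310. Between differently numbered libraries the correlations ran from -0.450 to 0.193. The highest same-numbered value was for replicate 2, which held both day 30 libraries of high mitochondrial share. Pairing of samples and a shared library property cannot be told apart there. A fit with the replicate block was run as an alternative, while the main fit had no block. Other scalings, filters, tools, blocks, a mitochondrial covariate and leaving out libraries were tried as alternatives. Tested on simulated counts for the comparison at day 30, with 200 of 19180 genes changed by 2 on the log2 scale, the fit recovered 175 (87.5%) with 4 false calls. The simulated counts were independent draws at the fitted spread, without replicate or mitochondrial effects. The changed genes excluded the least abundant ones and all changed by the same amount. There the fit of the 6 libraries alone recovered 162 (81%), while on the real counts it called 0. The simulation therefore does not measure how reliable the 172 calls are.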

Additional observations from a re-analysis of the deposited data

Results flagged for a closer look

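The response 30 days after withdrawal differed from that at day 21 of exposure, by a test of the difference itself (edgeR interaction contrast), in 120 genes. The 16 of them that were also called at day 30 follow, and those outside the rule for naming genes (OLR1, DSE, ABLIM3, NNMT, NPC1, ADGRG2 and VAV3) were chosen after their values were seen.

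Higher genes with a smaller response at day 30 were CCL20 (difference -3.23 on the log2 scale), TNFAIP3 (-2.11), DSE, which modifies dermatan sulphate (-1.55), and ABLIM3, an actin-binding LIM protein (-1.45). Lower genes with a smaller response were DEFB1 (4.10), FGB (3.55), INHBB (3.34), VAV3 (2.95), FGA (2.95) and ADGRG2, an adhesion G protein-coupled receptor (1.71). The remaining 6 were FN1 (-2.23) and OLR1, the oxidised LDL receptor (-2.63), which were lower at day 30, and RASL11A (2.56), OAS1 (2.11), NPC1 (1.53) and NNMT (1.13), which were higher. OLR1 had a log2 change of 0.73 ± 0.41 at day 21 and -1.90 ± 0.44 at day 30 (edgeR adjusted p for the difference = 0.027). The difference lost its call without untreated replicate 1 or 2 or previously treated replicate 1, 2 or 3 for OLR1 (edgeR adjusted p up to 0.0899), untreated replicate 1, 2 or 3 or previously treated replicate 2 or 3 for CCL20 (0.106) and untreated replicate 2 or 3 or previously treated replicate 1, 2 or 3 for NNMT (0.169). It was also lost without untreated replicate 2 or previously treated replicate 1, 2 or 3 for DSE (0.116), untreated replicate 1 or 2 or previously treated replicate 1 or 3 for ABLIM3 (0.125), and without untreated replicate 1 or 3 or previously treated replicate 2 or 3 for FGB (0.066), untreated replicate 2 or previously treated replicate 3 for DEFB1 (0.0867) and untreated replicate 1 or previously treated replicate 3 for FGA (0.0767). The other 8 of the 16 kept it without any 1 library of day 30.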

How the results depend on the processing

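The count of genes called at day 30 (172), of those differing from day 21 (120) and of list members called (30) moved by over 1.5 times as follows. A minimum of 10 counts in every library gave 94 called genes and 19 list members. A separate fit of the 6 libraries gave 0 and 0 (897 genes at an unadjusted edgeR p under 0.05), and with the replicate block 0 and 0 (1035 genes). The replicate block within the time point gave 263, 241 and 59. A covariate for high mitochondrial share gave 314, 210 and 54, and with the replicate block 345, 228 and 58. An adjusted p under 0.01 gave 78, 65 and 18, and glmTreat with a bound of 1.5-fold 46, 49 and 11. Omissions were of 1 library of day 30, or of all libraries of a replicate number at every time point. They gave 6 to 222 called genes, 7 to 109 differing genes and 2 to 47 list members. The lowest came without replicate number 1, and without previously treated replicate 3 the counts were 222, 79 and 47. Over the omissions the log2 change of VIM ran from -0.090 to 0.37, negative in 4 (-0.090, -0.03, -0.07 and -0.05), that of CCL2 from -0.82 to 0.016 and that of MKI67 from -0.77 to 0.089, the latter both positive without untreated replicate 2, and none of these genes was called. Of the 172 called genes, 0 reversed in any alternative run. The cause of these moves was not tested. The joint replicate block kept the counts within 1.5 times (218, 158 and 43) and lost none of the 172 calls. The effect of depth on the 62 called genes under 5 CPM was not tested apart from the filter.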

Other observations

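Some called genes outside the lists belong to developmental signalling and were chosen after their values were seen. RNF43, which removes Wnt receptors from the cell surface, stood at 23.9, 12.9 and 23.6 CPM untreated and 3.46, 5.78 and 5.65 CPM previously treated, a log2 change of -2.02 ± 0.33 (edgeR adjusted p = 0.000971). NKD1, an intracellular Wnt inhibitor, had 12.4, 7.2 and 18.7 CPM and 2.03, 3.05 and 4.25 CPM (-2.04 ± 0.48, edgeR adjusted p = 0.0241), and DKK1, a secreted one, 160.0, 135 and 227 CPM and 76.1, 72 and 96.3 CPM (-1.10 ± 0.21, edgeR adjusted p = 0.00491). NKD1 and DKK1 each lost the call without untreated replicate 3 or previously treated replicate 1 or 2 (edgeR adjusted p up to 0.204 and 0.0799). The ligand SHH had 2.95, 4.88 and 4.86 CPM and 1.49, 0.779 and 1.21 CPM (-1.85 ± 0.31, edgeR adjusted p = 0.00129), and the receptor FGFR2 3.01, 4.5 and 4.18 CPM and 1.56, 1.04 and 1.45 CPM (-1.51 ± 0.26, edgeR adjusted p = 0.00151).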
